A study of Mus musculus with 8 samples.

Results

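The Ly49 receptors are a family of lectin-like surface proteins, encoded by the Klra genes of the natural killer gene complex. The 9 family genes described here (Klra1, Klra3, Klra4, Klra5, Klra6, Klra7, Klra8, Klra9 and Klra10) were taken by gene symbol from a count table of 29426 genes. No threshold on their values was used, but the family was picked with earlier results of these data known. That table holds 11 Klra rows in all. The other Klra rows were Klra2, with 30 counts over all libraries, and Klra17, with 2 counts, and both were too low to be tested.

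The study measured RNA in CD8+ T cells of mouse spleen, in 8 libraries that form 4 groups of 2. The groups are mCre-MP, WT-MP, mCre-TN and WT-TN, where mCre and WT name the genotype of the mice and MP and TN name the sorted subset. All groups share the same handling: CD8+ cells were selected with magnetic beads and then sorted after staining for CD8, CD4, CD44 and CD122. The title ties the mCre mice to miR-29 and Cre, but the allele, the promoter that drives Cre, the strain and the sex are not stated there, and spleens are described only as adult or neonatal. The labels do not expand MP and TN, and the series' design text pairs TN with VM instead. Nothing in the labels states that the 2 libraries of a group came from separate mice, so every p-value measures the spread between libraries, which may be technical.

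Most Ly49 receptors bind MHC class I molecules on other cells and carry an inhibitory motif that recruits the phosphatase SHP-1, encoded by Ptpn6. Klra4 (Ly49D) and Klra8 (Ly49H) are the activating members, which lack that motif and signal through the adaptor DAP12, encoded by Tyrobp. The receptors are best known on natural killer (NK) cells, where each cell expresses its own subset of the family, and they also occur on memory-like CD8+ T cells. The gene content of the cluster differs between mouse strains.

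Library totals ran between 13479586 and 30057658 counts, and the first principal component, with 71.6% of the variance, separated the subsets. The labelled cell type was borne out by the CD8 T cell markers Cd8a, Cd8b1, Cd3e and Cd3g, whose summed level averaged 4128 CPM (counts scaled by library total and TMM factor) in the mCre-MP libraries and 4121 CPM in the WT-MP libraries, and 4101 CPM in the mCre-TN libraries and 4136 CPM in the WT-TN libraries. The genes of the sorted proteins separated the subsets in both genotypes. Cd44 averaged 158 CPM in mCre-MP and 142 CPM in WT-MP libraries, against 14.6 CPM in mCre-TN and 14.8 CPM in WT-TN libraries. Il2rb, which encodes CD122, averaged 1231 and 1352 CPM in mCre-MP and WT-MP libraries, against 187 and 195 CPM in mCre-TN and WT-TN libraries. Neither gene was called between genotypes in MP cells, with adjusted p = 0.223 for Cd44 and 0.601 for Il2rb (edgeR). Without mCre-MP library 1, Il2rb was called lower in mCre-MP cells, at a log2 fold change of -0.33.

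The 9 genes lie in one stretch of the minus strand of chromosome 6, at chr6:129898996-130386874 in GENCODE M21 on GRCm38 (mm10), a span of 487.9 kb. Whether other genes lie between them was not examined. In order of rising coordinate they are Klra5, Klra6, Klra4, Klra8, Klra9, Klra7, Klra10, Klra3 and Klra1. Each is annotated as protein coding, and no other annotated gene overlaps any of the 9. Their merged exons measure 823 to 1764 bases.

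The promoters share a stretch that the choice of genes did not use. In RefSeq's promoter windows for GRCm38.p6, which hold the 250 bases before and 50 after each annotated start, all 9 genes were matched. An 80-base block was taken from Klra6 as the stretch of its window that best matched the windows of the other members. Its recurrence among the 9 genes was thus selected for, and the counts below are a description. The block recurred with at most 20 edits in the windows of 7 of the 9 genes. These were Klra3, Klra4, Klra5, Klra6, Klra7, Klra8 and Klra9, and 56 positions of the block were identical in all 7. Over all 27025 genes with a window, 10 held the block, or 0.037%, and the 3 outside these 9 genes were Klra2, Klra17 and Gm52487. The windows of Klra1 and Klra10 held no match within that limit, with 37 and 36 edits at best. Each of these genes has 1 annotated start. The annotated exons of Klra10 measure 823 bases, of which 798 are coding, so its annotation may be incomplete at the start. Its window therefore cannot show whether its promoter lacks the block. The block is shown for the 5 genes in which it lies wholly before the annotated start, to let a reader see how alike these genes are. All sequences run 5′ to 3′ on the minus strand. In Klra6, at chr6:130027004-130027083, capitals mark the 56 positions shared by all 7 genes, and in the others capitals mark the positions that match Klra6.
Klra6: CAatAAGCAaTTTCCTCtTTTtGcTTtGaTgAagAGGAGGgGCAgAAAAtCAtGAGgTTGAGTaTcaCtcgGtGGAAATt
Klra7: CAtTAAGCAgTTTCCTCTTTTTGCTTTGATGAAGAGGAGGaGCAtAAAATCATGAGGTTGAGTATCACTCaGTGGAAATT
Klra5: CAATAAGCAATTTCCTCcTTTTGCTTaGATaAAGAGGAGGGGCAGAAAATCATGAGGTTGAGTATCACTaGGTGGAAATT
Klra8: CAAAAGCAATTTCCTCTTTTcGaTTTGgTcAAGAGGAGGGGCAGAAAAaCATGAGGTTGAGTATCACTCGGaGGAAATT
Klra4: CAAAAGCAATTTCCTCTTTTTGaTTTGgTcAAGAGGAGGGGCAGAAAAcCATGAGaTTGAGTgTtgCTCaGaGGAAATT

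Klra7 (chr6:130233342-130233421) differed from Klra6 by 5 edits, Klra5 (chr6:129913245-129913324) by 4, Klra8 (chr6:130129909-130129987) by 7 and Klra4 (chr6:130067281-130067359) by 11. Klra7 and Klra8 have 2 annotated starts each, and the block lay in 1 window of Klra7 and in both of Klra8. Klra3 and Klra9, whose block runs past the annotated start, each differed from Klra6 by 4 edits. The activating genes Klra4 and Klra8 were the furthest from Klra6 among the 7. Short motifs of 4 factor families were searched on both strands of the same windows. The T-box letters AGGTGT were in none of the 9 genes, against 15.7% of all genes. The TCF/LEF letters CTTTGA were in Klra6 and Klra7, against 18.2% of all genes, and the Runx letters TGTGGT were in Klra1, against 18.9%. The Ets letters CAGGAA were in Klra1 and Klra4, against 33.4% of all genes. A match of such letters is a description of the window and not a binding site.

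The coding sequences are close enough to matter for counting. Over the 36 pairs of genes, coding identity ran from 75.5% for Klra7 and Klra8 to 96.9% for Klra9 and Klra10, with a median of 81.6%. Of all 50-base windows in their transcripts, 39.8% in Klra10, 33.1% in Klra8, 31.5% in Klra9 and 20.7% in Klra3 also occur, base for base, in the transcripts of another gene. The share was 12.3% in Klra7, all with the pseudogene Klra13-ps, and at most 4.7% in Klra4, Klra1, Klra6 and Klra5. At 75 bases, Klra8 had the highest share, 19.7%, and Klra5 and Klra6 had none. The sources used here give neither the read length nor how reads with several matches were counted, so the values of Klra3, Klra8, Klra9 and Klra10 are uncertain as single genes. For that reason the sum of the 9 genes is given as well. The sum is unaffected by how reads were divided among the 9, but it would still change if reads shared with pseudogenes, or with several genes, were dropped or counted more than once.

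The Ly49 genes were detected in MP cells and were close to the limit of detection in TN cells, in both genotypes, and within MP cells all 9 stood lower in mCre than in WT mice. The summed family level was 9.78 and 8.18 CPM in the mCre-MP libraries, against 41.3 and 48.2 CPM in the WT-MP libraries. In TN cells the sum was 0.393 and 0.308 CPM in the mCre libraries, against 0.443 and 0.268 CPM in the WT libraries. These sums rest on 178 and 199 counts for mCre-MP and 957 and 1049 for WT-MP, and on 12 and 6 counts for mCre-TN and 6 and 5 for WT-TN. The MP groups did not overlap, whereas the TN groups did.

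**Figure D1:**
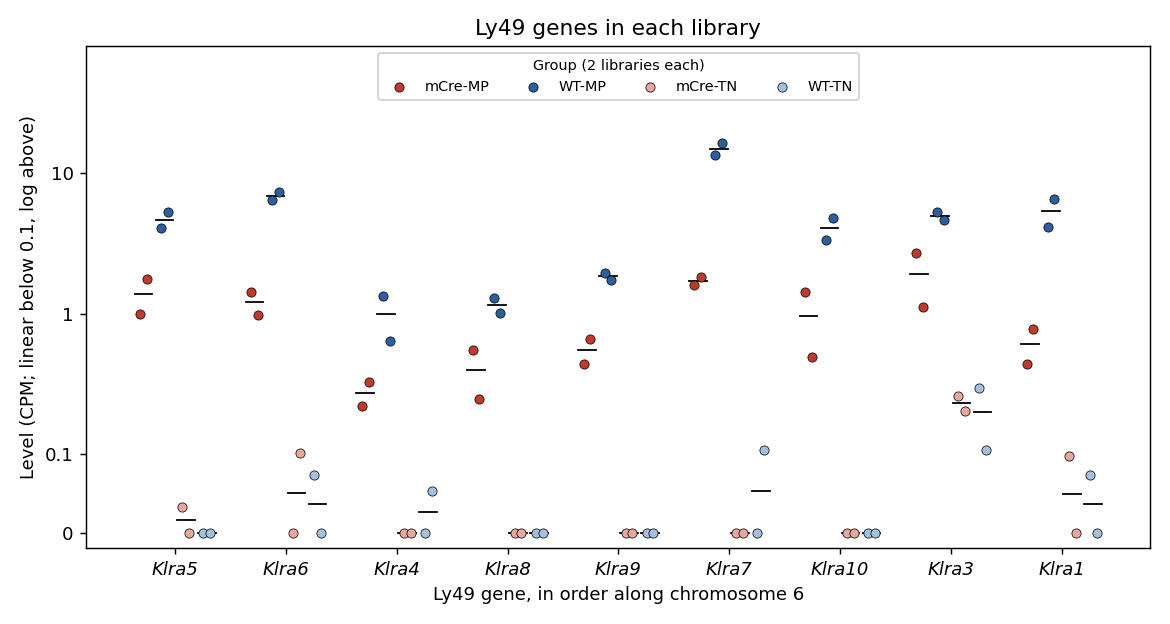
Level of each Ly49 gene in each of the 8 libraries in CPM (vertical axis, linear below 0.1 and logarithmic above), with the genes in their order along chromosome 6; points are libraries and lines are group means. All 9 genes stand lower in both mCre-MP libraries than in both WT-MP libraries, and TN libraries lie near or at 0 for every gene.

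The first comparison asks how the subsets differ. Every one of the 9 genes was higher in MP than in TN cells in both genotypes (edgeR, adjusted p under 0.05 over all genes tested). In mCre mice 9 of 9 were called higher, where 17% of the 12313 genes tested were, and in WT mice 9 of 9, where 16.2% were. These counts are a description: none of the 9 genes reached the level of the low-count filter, 0.486 CPM, in any TN library, so each was tested because of its MP libraries. The family sum averaged 8.98 ± 1.13 CPM in mCre-MP and 0.35 ± 0.0599 CPM in mCre-TN libraries (SD, n = 2 each), a 25.6-fold difference. It averaged 44.8 ± 4.9 CPM in WT-MP and 0.356 ± 0.124 CPM in WT-TN libraries (SD, n = 2 each), a 126-fold difference.

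Among the inhibitory genes, Klra7 (Ly49G), the most abundant member in WT mice, had 29 and 44 counts in the mCre-MP libraries and none in the mCre-TN libraries. It was at least 28.6-fold higher in mCre-MP than in mCre-TN cells (adjusted p = 2.4e-07, edgeR), with 3 counts over the TN group taken as the limit of a zero. In WT mice it had 312 and 354 counts in the MP libraries, against 0 and 2 in the TN libraries, which is 238-fold higher with an exact counting interval of 65.7 to 1970 (adjusted p = 5.77e-11, edgeR). Klra6 (Ly49F) was 29.4-fold higher in mCre-MP than in mCre-TN cells (7.73 to 250) and 221-fold higher in WT-MP than in WT-TN cells (39.4 to 8770). Klra1 (Ly49A), a receptor for the H-2D molecule of some strains, was 10.6-fold higher in mCre-MP than in mCre-TN cells (3.26 to 54.6) and 170-fold higher in WT-MP than in WT-TN cells (30.3 to 6760). The intervals are wide because the TN libraries hold 0 to 3 counts of each of these genes in a group.

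Klra5 (Ly49E), which is known from fetal NK cells, was 71.8-fold higher in mCre-MP than in mCre-TN cells (12.4 to 2880), and at least 49.9-fold higher in WT-MP than in WT-TN cells, where it had no count. Klra10 was at least 14.9-fold higher in mCre-MP than in mCre-TN cells and at least 43.4-fold higher in WT-MP than in WT-TN cells. Klra9 (Ly49I) was at least 9.42-fold higher in mCre-MP than in mCre-TN cells and at least 19.8-fold higher in WT-MP than in WT-TN cells. A bound set by a zero moves with the depth of the TN libraries, so these bounds show no difference between the genotypes. Klra3 (Ly49C), a receptor for H-2K molecules, was the member seen most in TN cells. It had 8 and 4 counts in the mCre-TN libraries and 4 and 2 in the WT-TN libraries. It was 7.46-fold higher in mCre-MP than in mCre-TN cells (4.03 to 15.1) and 26.5-fold higher in WT-MP than in WT-TN cells (12 to 73).

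The activating genes followed the same direction at lower levels. Klra8, the receptor for a protein of mouse cytomegalovirus, was at least 6.28-fold higher in mCre-MP than in mCre-TN cells and at least 12.4-fold higher in WT-MP than in WT-TN cells. Klra4 was at least 4.71-fold higher in mCre-MP than in mCre-TN cells and 32.2-fold higher in WT-MP than in WT-TN cells (5.5 to 1300), with 1 count in the WT-TN libraries. These intervals and limits cover counting error only. In mCre mice the call of Klra4 was lost without mCre-TN library 1 and the calls of Klra4 and Klra1 without mCre-MP library 2, which left 8 and 7 of the 9 genes called.

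The second comparison, mCre against WT within MP cells, was the one in which the family stood apart between genotypes. The family sum in mCre-MP cells was 20.1% of that in WT-MP cells, or 4.99-fold lower, and the pairs of single libraries gave 4.22-fold to 5.89-fold. The difference was far larger than the spread between libraries of a group. By gene, 7 of the 9 were called lower in mCre-MP cells (edgeR, adjusted p under 0.05), where 1.97% of all genes tested were. All 9 reached the level of the low-count filter in both WT-MP libraries and 5 did so in both mCre-MP libraries, so Klra1, Klra4, Klra8 and Klra9 were tested because of their WT-MP libraries. The other two, Klra4 and Klra8, were also below WT at an unadjusted p under 0.05 but not after adjustment. In all 9 genes both mCre-MP libraries lay below both WT-MP libraries, which held for 24.3% of all genes tested. The median log2 fold change of the 9 genes was -1.81, beside a median of 0 over all genes tested.

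Klra7 had 1.59 and 1.81 CPM in the mCre-MP libraries, against 13.5 and 16.3 CPM in the WT-MP libraries. It was lower by the widest margin in the family, with a log2 fold change of -3.11 ± 0.231 (SE, adjusted p = 2.63e-07, edgeR), and it ranked 5 among all genes by p-value. Its mean in mCre-MP cells was 11.4% of that in WT-MP cells. Klra1 had 0.44 and 0.781 CPM in the mCre-MP libraries, against 4.1 and 6.57 CPM in the WT-MP libraries. Its log2 fold change was -3.07 ± 0.405 (SE, adjusted p = 0.000126, edgeR), which also left 11.4% of the WT mean. Klra6 had 1.43 and 0.987 CPM in the mCre-MP libraries, against 6.47 and 7.31 CPM in the WT-MP libraries, and fell to 17.5% of the WT mean with a log2 fold change of -2.53 ± 0.325 (SE, adjusted p = 0.000102, edgeR). For these 3 inhibitory receptor genes no single pair of libraries gave less than a 4.53-fold difference.

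Klra10 and Klra5 followed, with less tight libraries in the mCre-MP group. Klra10 had 1.43 and 0.493 CPM in the mCre-MP libraries, against 3.37 and 4.78 CPM in the WT-MP libraries, a log2 fold change of -2.14 ± 0.426 (SE, adjusted p = 0.0103, edgeR). Klra5 had 0.989 and 1.77 CPM in the mCre-MP libraries, against 4.06 and 5.29 CPM in the WT-MP libraries, a log2 fold change of -1.72 ± 0.333 (SE, adjusted p = 0.00529, edgeR). The mCre-MP libraries took opposite places in these genes: library 1 was the higher for Klra10 and library 2 for Klra5.

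Klra9 and Klra3, inhibitory receptors for H-2K molecules, had the smallest differences among the genes called. Klra9 had 0.44 and 0.658 CPM in the mCre-MP libraries, against 1.94 and 1.75 CPM in the WT-MP libraries, a log2 fold change of -1.71 ± 0.445 (SE, adjusted p = 0.0396, edgeR). Klra3 had 2.69 and 1.11 CPM in the mCre-MP libraries, against 5.26 and 4.6 CPM in the WT-MP libraries, a log2 fold change of -1.42 ± 0.339 (SE, adjusted p = 0.0223, edgeR). Klra3 retained the highest share of its WT mean, 38.5%, and its closest pair of libraries differed by 1.71-fold.

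The activating genes were at the low end of the family. Klra4 had 0.22 and 0.329 CPM in the mCre-MP libraries, against 1.34 and 0.644 CPM in the WT-MP libraries, a log2 fold change of -1.81 ± 0.609 (SE, adjusted p = 0.116, edgeR). Klra8 had 0.549 and 0.247 CPM in the mCre-MP libraries, against 1.29 and 1.01 CPM in the WT-MP libraries, a log2 fold change of -1.58 ± 0.549 (SE, adjusted p = 0.131, edgeR). Each rests on 4 to 10 counts in an mCre-MP library and 14 to 31 in a WT-MP library. Summed, Klra4 and Klra8 averaged 0.672 ± 0.137 CPM in mCre-MP and 2.14 ± 0.691 CPM in WT-MP libraries (SD, n = 2 each), or 31.4% of WT. The other 7 genes summed averaged 8.31 ± 0.992 CPM in mCre-MP and 42.6 ± 5.59 CPM in WT-MP libraries (SD, n = 2 each), or 19.5% of WT. Whether the activating and the remaining genes differed in size of effect was not tested.

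**Figure D2:**
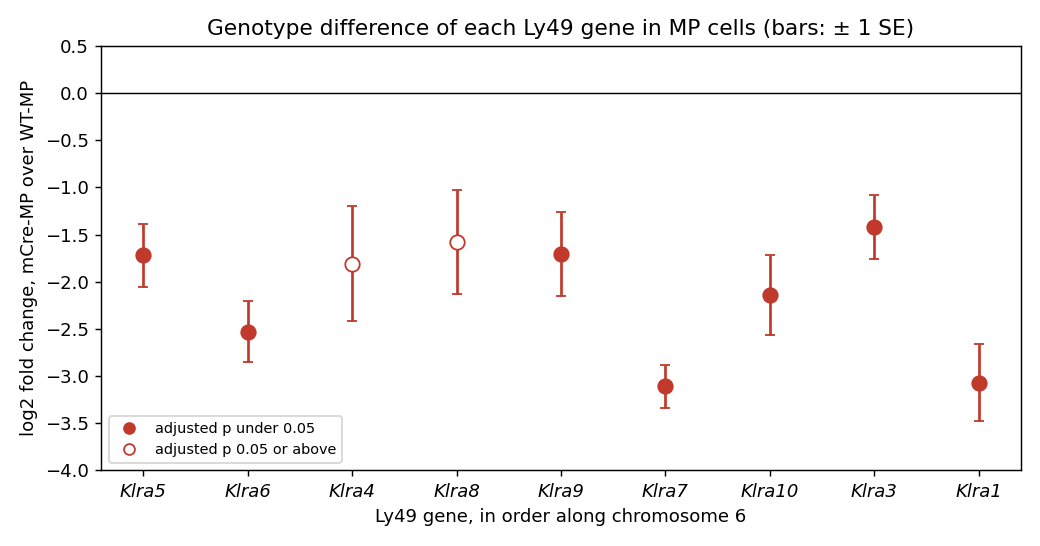
Log2 fold change of mCre-MP over WT-MP for each Ly49 gene (vertical axis), in order along chromosome 6; bars are 1 SE from edgeR, filled points passed adjusted p under 0.05 and open points did not. All 9 genes lie below 0, between -3.11 for Klra7 and -1.42 for Klra3, and the open points are Klra4 and Klra8.

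Klra7 and Klra1, with the largest differences of the 9, lie apart in the cluster, and the promoter window of Klra7 held the shared block while that of Klra1 did not. Whether position or the block bears on the size of the difference was not tested. The direction of the 9 genes was the same in every alternative analysis that gave a value, and Klra6 and Klra7 were called in all 15. The count of calls moved with single libraries. Without WT-MP library 2 it was 3 (Klra1, Klra6 and Klra7), without mCre-MP library 2 it was 4 (those genes and Klra5), and without library 1 of WT-MP or of mCre-MP it was 5. DESeq2 called 5 genes (Klra1, Klra5, Klra6, Klra7 and Klra10) and gave no adjusted p for Klra4 and Klra8. In bulk RNA, a smaller share of Ly49-expressing cells and less Ly49 RNA per cell cannot be told apart.

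The make-up of the family's counts also differed between the genotypes. Klra7 made up 16.3% and 22.1% of the Ly49 counts in the mCre-MP libraries, against 32.6% and 33.7% in the WT-MP libraries. The exact binomial intervals at 95% were 11.2% to 22.6% and 16.5% to 28.5% in the mCre-MP libraries, against 29.6% to 35.7% and 30.9% to 36.7% in the WT-MP libraries, so the highest bound in mCre-MP lay under the lowest in WT-MP. Klra3 made up 27.5% and 13.6% in the mCre-MP libraries, against 12.7% and 9.53% in the WT-MP libraries. The leading gene by share therefore differed between the mCre-MP libraries, being Klra3 in library 1 and Klra7 in library 2, while Klra7 led in both WT-MP libraries. Klra6 took a like share in both genotypes, 14.6% and 12.1% in mCre-MP, against 15.7% and 15.2% in WT-MP libraries. Klra5 took 10.1% and 21.6% in the mCre-MP libraries, against 9.82% and 11% in the WT-MP libraries, and these groups overlapped. The intervals cover counting error only and understate the spread between libraries. For Klra3 those of the mCre-MP libraries, 21.1% to 34.7% and 9.14% to 19.1%, did not overlap each other. No test was made on the shares.

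**Figure D3:**
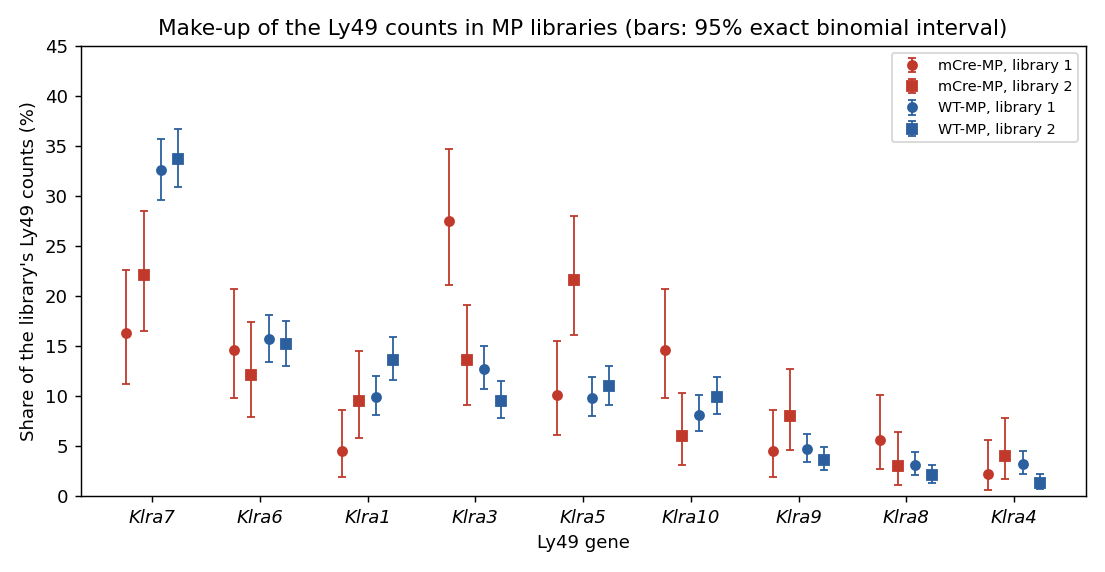
Share of each Ly49 gene in the summed Ly49 counts of each MP library (vertical axis, percent); bars are 95% exact binomial intervals, which cover counting error only. Klra7 stands at 16.3% and 22.1% in mCre-MP libraries, below 32.6% and 33.7% in WT-MP libraries, and the mCre-MP libraries differ from each other in Klra3 and Klra5.

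Without Klra7 the family sum still differed, with 7.28 ± 1.28 CPM in mCre-MP and 29.9 ± 2.91 CPM in WT-MP libraries (SD, n = 2 each), a 4.11-fold lower level in mCre-MP cells. Compared per kilobase of exon, which allows levels of different genes to be set side by side, Klra7 had 11.8 CPM per kilobase in WT-MP cells, ahead of Klra6 with 6.18, Klra10 with 4.95, Klra3 with 3.98, Klra5 with 3.34, Klra1 with 3.03, Klra9 with 1.44, Klra8 with 0.979 and Klra4 with 0.796. In mCre-MP cells the order by the same measure opened with Klra3 at 1.54, Klra7 at 1.34, Klra10 at 1.17, Klra6 at 1.08 and Klra5 at 0.986 CPM per kilobase. It closed with Klra9 at 0.429, Klra1 at 0.346, Klra8 at 0.338 and Klra4 at 0.22. The first 5 in mCre-MP cells were within the spread of their libraries, since Klra3 had an SD of 0.903 and Klra10 of 0.803 CPM per kilobase (n = 2). In WT-MP cells Klra7 stood above all others by more than its SD of 1.57.

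In TN cells single genes held too few counts for a precise comparison of the genotypes. None of the 9 genes was called between mCre-TN and WT-TN cells, 0 had an unadjusted p under 0.05, and DESeq2 called 0, where 3.47% of all genes tested were called in either direction by edgeR. Of the 9 genes, 5 had at most 1 count in each TN group (Klra4, Klra5, Klra8, Klra9 and Klra10). The difference between the genotype effects in MP and in TN cells was tested for each gene as well. By edgeR 0 of 9 passed, where 0.13% of all genes did, 1 (Klra1) had an unadjusted p under 0.05, and DESeq2 called 0. The family sum, with 18 counts in the mCre-TN and 11 in the WT-TN libraries, had a log2 ratio of -0.02 between the group means in TN cells, against -2.32 in MP cells, and no test was made on the sums. The limit set by a count of 0 over a group was 0.0599 CPM in mCre-TN and 0.0933 CPM in WT-TN libraries. With subset as a term and all 8 libraries, 8 of the 9 genes were lower in mCre than in WT cells (edgeR), where 5.97% of all genes were. Klra8 was the exception, with a log2 fold change of -1.56 (adjusted p = 0.0749, edgeR). Nearly all counts of the family came from the MP libraries, so this fit mostly repeated the MP comparison. Klra7, for example, had a log2 fold change of -3.12 in it and of -3.11 in MP cells. The fit therefore says little about TN cells. Leaving out 1 library left 5 to 7 calls in that fit, with 5 without WT-MP library 1, WT-MP library 2 or mCre-MP library 2, and DESeq2 made 4.

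Among other lectin-like receptors of the same gene complex, 5 were also lower in mCre-MP cells, while 8 were not called and 1 was higher. Of 18 such genes 17 were in the table and 14 could be tested. Their median log2 fold change between mCre-MP and WT-MP cells was -0.3, beside 0 over all genes tested. Over all genes tested 2.08% were called higher and 1.97% lower in this comparison. Klre1, which forms receptors with Klri1 or Klri2, had 2.97 and 4.28 CPM in the mCre-MP libraries, against 9.49 and 12.4 CPM in the WT-MP libraries, a log2 fold change of -1.58 (adjusted p = 0.000618, edgeR). Klrk1, which encodes the activating receptor NKG2D, fell by 0.49 on the log2 scale (adjusted p = 9.1e-05, edgeR). Klrc1, which encodes the inhibitory receptor NKG2A, fell by 0.6 (adjusted p = 0.000173, edgeR). The fold changes of the 9 Ly49 genes, -3.11 to -1.42, spanned that of Klre1. Klrc2 and Clec2i were also lower, by 0.63 and 0.36 on the log2 scale, and the call of Klrc2 was lost without mCre-MP library 1 (-0.55) or WT-MP library 2 (-0.52). Klri2, the partner of Klre1, had a log2 fold change of 0.13 (adjusted p = 0.706, edgeR). Cd69, an activation marker encoded in the complex, was the gene that was higher in mCre-MP cells, by 0.4 on the log2 scale (adjusted p = 0.000156, edgeR). In MP against TN cells of WT mice 13 of the 14 were higher and 0 lower, where 16.2% and 15.6% of all genes tested were.

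**Figure D4:**
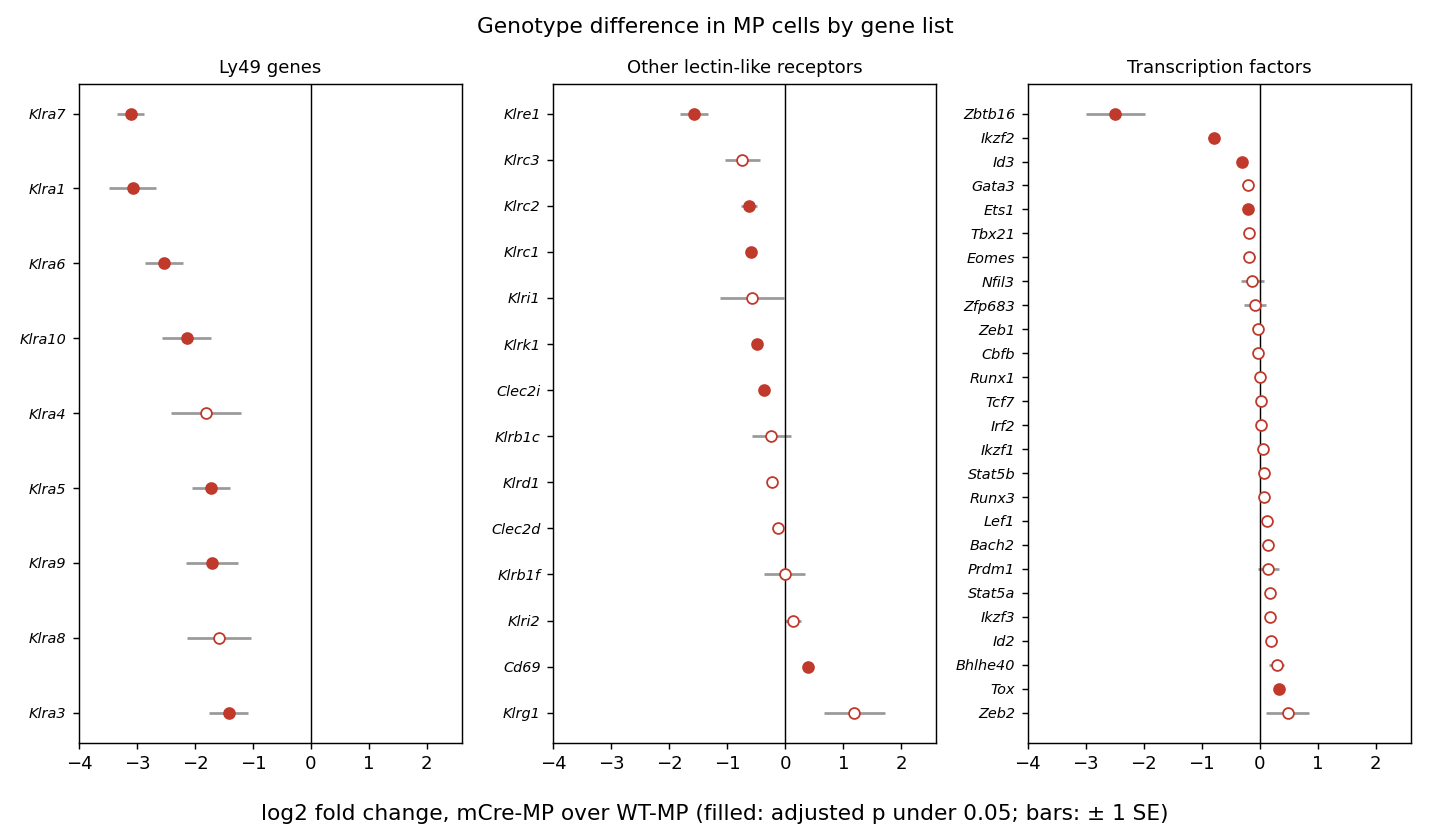
Log2 fold change of mCre-MP over WT-MP (horizontal axis) for the 9 Ly49 genes, 14 other lectin-like receptors and 26 transcription factors; bars are 1 SE from edgeR and filled points passed adjusted p under 0.05. The Ly49 genes lie between -3.11 and -1.42, while the other panels run from -1.58 for Klre1 to 1.19 for Klrg1, which was not called, and from -2.49 for Zbtb16 to 0.48 for Zeb2, which was not called.

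The molecules through which Ly49 receptors signal were measured beside them. Of 14 adaptors and proximal kinases 0 were called between mCre-MP and WT-MP cells by edgeR, and 4 had an unadjusted p under 0.05. Tyrobp, the adaptor of the activating members, averaged 2.24 ± 0.443 CPM in mCre-MP and 3.56 ± 0.0333 CPM in WT-MP libraries (SD, n = 2 each), with a log2 fold change of -0.66 (adjusted p = 0.237, edgeR). Fcer1g, a related adaptor, had a log2 fold change of -0.63 (adjusted p = 0.209, edgeR). Of 9 phosphatases and their regulators 0 were called between these groups, and 2 had an unadjusted p under 0.05. Ptpn6, the phosphatase bound by the inhibitory members, averaged 366 ± 10.5 CPM in mCre-MP and 381 ± 10 CPM in WT-MP libraries (SD, n = 2 each). Across subsets, 1 of the 14 was called higher in mCre cells, Plcg2 (0.41, adjusted p = 0.0173, edgeR). Syk was the 1 called lower (-0.66, adjusted p = 0.0332, edgeR). In that fit 2 of the 9 phosphatases and regulators were lower, Inpp5d (-0.13) and Ptpn2 (-0.14), and 0 higher. Over all 12313 genes tested 623 were higher and 735 lower. In MP against TN cells of WT mice, 6 of the adaptors and kinases were higher and 4 lower, where 16.2% and 15.6% of all genes tested were. Fcer1g rose by 2.66 and Tyrobp by 1.23 on the log2 scale, whereas Cd247, the T cell receptor's zeta chain, fell by 0.61 and the scaffold Lat fell by 0.5. Inppl1, a lipid phosphatase, rose by 2.5 and Ptpn6 fell by 0.28.

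The MHC class I ligands were expressed in every group. Of 19 class I and antigen-loading genes 18 were in the table and 17 were tested, and 3 were higher and 0 lower in mCre-MP than in WT-MP cells, where 2.08% and 1.97% of all genes tested were. H2-T23, which encodes the ligand Qa-1 of the NKG2 receptors, averaged 491 ± 4.57 CPM in mCre-MP and 371 ± 1.86 CPM in WT-MP libraries (SD, n = 2 each, log2 fold change 0.4, adjusted p = 0.00022, edgeR). The classical genes H2-K1 and H2-D1, whose products are ligands of Ly49 receptors, had log2 fold changes of 0.03 (adjusted p = 0.839) and 0.08 (adjusted p = 0.448, edgeR). In TN cells 4 of the 17 were lower in mCre than in WT mice and 0 higher, where 1.92% of all genes tested were lower. These were H2-Q6 (-0.95), H2-Q7 (-0.5), H2-K1 (-0.25, adjusted p = 0.00827, edgeR) and H2-Q4, and the calls of H2-K1 and H2-Q4 were lost without mCre-TN library 1 (-0.22 and -0.18) or WT-TN library 2 (-0.19 and -0.21). Among the genes that were higher in mCre-MP cells, H2-M3 was not called when any 1 of the 4 MP libraries was left out, at log2 fold changes of 0.2 to 0.24.

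Of 27 transcription factors studied in Ly49 expression or in NK and memory CD8 cells 26 could be tested. Between mCre-MP and WT-MP cells 1 was higher and 4 were lower, where 2.08% and 1.97% of all genes tested were. Their median log2 fold change was 0.03. Ikzf2 (Helios) averaged 16.8 ± 0.771 CPM in mCre-MP and 29.1 ± 3.39 CPM in WT-MP libraries (SD, n = 2 each), a log2 fold change of -0.79 (adjusted p = 6.86e-05, edgeR). In TN cells it went the other way, with 33.8 ± 1.41 CPM in mCre and 22.9 ± 0.637 CPM in WT libraries (SD, n = 2 each, log2 fold change 0.57, adjusted p = 0.00153, edgeR), and the difference between the subset effects was called (-1.35, adjusted p = 3.74e-05, edgeR). Zbtb16 (PLZF), the factor of innate-like T cells, had 0.385 and 0.206 CPM in the mCre-MP libraries, against 1.55 and 1.7 CPM in the WT-MP libraries, a log2 fold change of -2.49 (adjusted p = 0.00809, edgeR). Its call was lost without WT-MP library 1 (-2.56), WT-MP library 2 (-2.43) or mCre-MP library 2 (-2.07). The calls of Ets1 (-0.2), Id3 (-0.3) and Tox (0.33) were also each lost without at least 1 of the MP libraries, with log2 fold changes that stayed within -0.22 to -0.19, -0.38 to -0.23 and 0.25 to 0.42. The T-box factors Tbx21 (T-bet) and Eomes had log2 fold changes of -0.19 (adjusted p = 0.287) and -0.18 (adjusted p = 0.41, edgeR), and both were called at the same fold changes in the fit without a filter on low counts. Tcf7, which is needed for Ly49A expression in NK cells, had one of 0.03 (adjusted p = 0.812, edgeR). In MP against TN cells of WT mice, Tbx21 rose by 4.13, Eomes by 2.24 and Bhlhe40 by 4.86 on the log2 scale, and 12 factors were higher and 8 lower, where 16.2% and 15.6% of all genes tested were.

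Markers of other cells that express Ly49 receptors were examined for the same groups. The summed level of 9 NK cell markers was 259 and 243 CPM in the mCre-MP libraries, against 278 and 292 CPM in the WT-MP libraries, and 40.5 to 59.2 CPM in the TN libraries. Of the 9 markers 1, Klre1, was called between mCre-MP and WT-MP cells, and it was lower, as were 1.97% of all genes tested. The defining NK markers were low. Ncr1 had 0.165 and 0.617 CPM in the mCre-MP libraries, against 0.216 and 0.69 CPM in the WT-MP libraries, and no count in any TN library. Klrb1c (NK1.1) had 1.92 and 2.14 CPM in the mCre-MP libraries, against 2.07 and 2.76 CPM in the WT-MP libraries, with a log2 fold change of -0.24 (adjusted p = 0.786, edgeR). Gzma went the other way, averaging 11.4 CPM in mCre-MP and 7.84 CPM in WT-MP libraries, as did Klri2 with 17.2 and 15.8 CPM. The remaining markers averaged lower in mCre-MP libraries. Across subsets 1 of the 9 was called higher in mCre cells and 1 lower (edgeR), where 623 and 735 of the 12313 genes tested were. Most of the NK marker sum was Eomes, which memory CD8 cells also express, with 194 CPM in mCre-MP and 220 CPM in WT-MP libraries, so the sum says little about NK cells. Their part in the Ly49 result was not tested. Zbtb16, a marker of innate-like T cells, was lower in mCre-MP than in WT-MP cells, as given above, and its part in the result was not tested either. Summed markers of B cells averaged 7.14 CPM in mCre-MP and 8.25 CPM in WT-MP libraries, and those of myeloid cells averaged 17.3 CPM in mCre-MP and 21.1 CPM in WT-MP libraries. Most of the myeloid sum was Cd68, and Csf1r, the receptor for a macrophage growth factor, had 3.57 and 2.84 CPM in the mCre-MP libraries, against 9.54 and 4.96 CPM in the WT-MP libraries. Csf1r also had 2.71 and 2 CPM in the mCre-TN libraries, against 8.05 and 5.26 CPM in the WT-TN libraries, and across subsets it was lower in mCre cells by 1.32 on the log2 scale (adjusted p = 0.0021, edgeR). Lyz2 had a log2 fold change of -0.68 in MP cells (adjusted p = 0.253, edgeR). The remaining myeloid markers went the other way. Cd68 averaged 11.5 CPM in mCre-MP and 10.4 CPM in WT-MP libraries, and Itgam averaged 0.597 and 0.378 CPM. The part of myeloid cells in the Ly49 result was not tested. Dendritic cell markers averaged 32.6 CPM in mCre-MP and 35.6 CPM in WT-MP libraries, and CD4 and regulatory T cell markers averaged 19.1 CPM in mCre-MP and 22 CPM in WT-MP libraries. Most of the dendritic sum was Itgax, with 30.7 and 33.9 CPM. Flt3 and Siglech averaged higher in mCre-MP libraries and Clec9a lower. Most of the CD4 and regulatory sum was Zbtb7b, with 15.6 and 19.7 CPM, whereas Cd4, Foxp3 and Ctla4 averaged higher in mCre-MP libraries. Of the 5 gamma-delta T cell markers 1, Sox13, was in the table, at 0.274 CPM in mCre-MP and 0.132 CPM in WT-MP libraries.

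Of 19 memory-phenotype and virtual memory markers, 1 was higher and 2 were lower in mCre-MP than in WT-MP cells. Over all genes tested 2.08% were higher and 1.97% lower. The markers had a median log2 fold change of -0.01. The integrin gene Itgb1 had a log2 fold change of -0.35 (adjusted p = 0.00164, edgeR). In MP against TN cells of WT mice 13 were higher and 5 lower, where 16.2% and 15.6% of all genes tested were. Ccl5 and Ccr2 were among those higher in MP cells.

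The genes whose pattern over the 8 libraries was most like that of the family sum were found by the root mean square difference of centred log2 levels. The smallest values among named genes outside the family were those of Gpr15 (0.539), Rab27b (0.549), Klre1 (0.583), Rasl12 (0.697) and Ctla2a (0.723). The median over all such named genes was 2.88, with unnamed transcripts, pseudogenes and antigen receptor segments left out. Gpr15, a homing receptor, had 28.7 and 25.2 CPM in the mCre-MP libraries, against 52.7 and 50.1 CPM in the WT-MP libraries, and under 1 CPM in every TN library. Ctla2a, a protease inhibitor, had 69.8 and 63.7 CPM in the mCre-MP libraries, against 100 and 93.2 CPM in the WT-MP libraries. All 5 genes were low in TN cells, and they differed less between the genotypes than the family sum did. Within the family the same measure ran from 0.545 for Klra7 to 1.59 for Klra4. Klra7 itself makes up a large share of the sum.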

How the data were processed

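Gene counts were deposited by the authors as whole-number counts per gene, not normalized. Trim Galore, HISAT2, featureCounts and the build mm10 are named in the submitters' processing notes, and no source used here states versions, annotation, strand setting or how reads with several matches were treated. The table had 0 rows that name no gene. The deposited counts were tested with edgeR 4.0.16 in R 4.3.3 (quasi-likelihood F test, TMM scaling, filterByExpr, a mean for each of 4 groups, Benjamini-Hochberg over 12313 genes), and SE is the fold change over the root of F. Replicates differed by more than sampling noise. The test was checked on simulated data. CPM uses TMM-scaled totals. DESeq2 1.42.0, other scalings and filters, a replicate block, a fit on the compared groups and leaving out each library were the alternatives. Block matches used edlib 1.3.9.post1. The genes and lists were chosen with earlier results of these data known. All 9 members are given. From each list up to 4 genes with the smallest p in MP against TN of WT and up to 2 in mCre against WT across subsets could be named, and the 5 genes of most similar pattern. Genes named outside that rule, such as Ikzf2, Id3, Eomes, Tcf7, Zeb2, Tyrobp, Ncr1, Klrb1c, Klrg1, Clec2i, Cd69, H2-K1, H2-D1, H2-Q4, H2-Q7 and H2-M3, were chosen after their values were seen. Some genes of the lists are not reported here by name.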

Additional observations from a re-analysis of the deposited data

Results flagged for a closer look

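None of the 9 Ly49 genes was called by edgeR for a difference between the subsets in its genotype effect. Their TN counts were too few for that test to decide whether they differed. Of the lists set beside them, 4 genes were called. The effect of mCre against WT in MP cells minus that in TN cells was -1.35 on the log2 scale for Ikzf2, with an effect of -0.79 in MP and 0.57 in TN cells. It was 1.09 for H2-Q6 and 0.58 for H2-Q7, which were called lower in mCre-TN than in WT-TN cells and were not called in MP cells. It was -0.48 for Clec2i, which was called lower in mCre-MP than in WT-MP cells.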

How the results depend on the processing

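Between mCre-MP and WT-MP cells, the 9 Ly49 genes kept a lower level in mCre under every alternative that gave a value, and of 103 values for the 7 genes called 13 lost their call. The count of calls was 7, with 3 to 7 when a library was left out. Across subsets the count of 8 became 4 with DESeq2, 5 with at least 10 counts in at least 4 libraries, and 5 to 7 when a library was left out. For MP against TN cells that filter left 5 genes to test, all called, in mCre and in WT mice, as did the fit on mCre groups alone (5); leaving out a library gave 7 to 9 in mCre mice. The log2 ratio of the family sum, -2.32, was -2.04 without Klra7, and Klra7's share in WT-MP cells was 32.2% per kilobase, against 33.2% of counts. Among other genes, the log2 fold change of mCre-MP over WT-MP cells turned for Il2rb to 0.02 without mCre-MP library 2, and for Ncr1 to 0.44 without mCre-MP library 1 and 0.91 without WT-MP library 2. Over all libraries left out it ran from -0.33 to 0.02 for Il2rb and from -1.42 to 0.91 for Ncr1, and the causes were not tested. Values near 0 also turned for Tcf7 (0.03) to -0.06 without mCre-MP library 2, and for H2-K1 (0.03) to -0.02 without WT-MP library 1 and -0.01 without mCre-MP library 1. With a library left out they ran from -0.06 to 0.1 and from -0.02 to 0.07. In TN cells the fit on those groups alone tested none of the 9 genes.

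Whether replicate numbers pair the libraries is not stated. Deviations of same-numbered libraries correlated by 0.11 between WT-MP and WT-TN and by 0.08 between mCre-MP and mCre-TN. Between the genotypes they correlated by -0.04 to -0.01. With 2 libraries in a group these values cannot decide whether libraries are paired. With a replicate block, the calls were 7 between mCre-MP and WT-MP cells, 7 across subsets (8 without it), 9 and 9 for MP against TN cells in mCre and WT mice, and 0 for genotype in TN cells and for the difference between subsets.

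Few counts limit the TN values, since the family held 5 to 12 counts in a TN library, and single-gene values are also limited by sequence that the genes share.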
